A study of Mus musculus with 50 samples.

Results

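The genes described here encode the lysosomal cathepsins, the subunits of the vacuolar proton pump (V-ATPase) and the lysosome-associated membrane proteins of mouse gastrocnemius muscle. Members were chosen by symbol and level, as every Cts, Atp6v or Lamp gene whose length-scaled level reached 1 TPM (the unit in which the transcripts of each library are scaled to the same total) in 8 or more mice. The rule gave 29 of the 23880 genes in the deposited tables, namely 11 cathepsins, 9 subunits of the V1 sector of the pump, 7 subunits of its V0 sector, and Lamp1 and Lamp2. Another 18 of the 47 matching symbols were below that level. Nearest outside was Atp6v0a4, which reached 1 TPM in 7 mice, and nearest inside was Atp6v1g2, which reached it in 49. All 29 genes also passed the filter on counts used for the tests.

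Each of 50 wild-type males of the inbred strain C57BL/6JRj gave 1 RNA library. The groups of 8, 18, 22 and 24 months held 8 mice apiece and those of 26 and 28 months held 9, which the study places in an adult, an early sarcopenic and a sarcopenic phase of muscle ageing, with 2 ages in each. All mice were caged singly and ate the purified diet AIN-93M at the end, but those of 8 and 18 months were moved to it only to acclimatize before dissection, and those of 22 to 28 months had eaten it since they were 18 to 19 months old. Age and diet history therefore cannot be told apart when mice of 22 months or more are compared with 8 months. Mice of 28 and 22 months share 1 schedule, as do those of 18 and 8 months. Time on the diet still rose with age from 22 to 28 months. Mice with overt illness or tumors had been left out, so the oldest groups hold animals that survived in apparent health. Total counts per mouse lay between 13607229 and 21267375, with a median of 16521368.

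Lysosomes degrade proteins, lipids and glycans that arrive by endocytosis or autophagy. The V-ATPase acidifies them: its cytosolic V1 sector hydrolyses ATP and turns a rotor, and its membrane-embedded V0 sector carries protons into the lumen. Cathepsins are the main proteases of that acid lumen, and Lamp1 and Lamp2 are heavily glycosylated proteins that coat the inner face of the lysosomal membrane. In skeletal muscle, transcripts of this system are known to respond to wasting, and loss of Lamp2 or of the acid glucosidase Gaa causes disease with stored vacuoles or glycogen.

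The tissue label held in these libraries. Markers of muscle fibres (Acta1, Ckm, Mb, Tnnt3, Myh4, Myh1, Actn3 and Pygm) summed to between 131211 and 158715 TPM at 8 months and between 113232 and 174916 TPM at 28 months. One library stood apart: replicate 2 of the 28-month group. It was the highest of the 9 mice of its age in 16 of the 29 genes, including 7 of 11 cathepsins and both Lamp genes. The share of all genes highest in this mouse was not worked out. This library also had the lowest sum of muscle fibre markers of all 50 mice (113232 TPM). Its sum of 12 macrophage markers was the highest (842 TPM). Its sum of 5 neutrophil markers was 250 TPM, against a median of 24.5 TPM at its age. Values without this mouse are therefore given for listed genes whose call against 8 months it moved. They are also given for some of the members and lists whose levels it moved.

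Between 8 and 28 months, 13 of the 29 genes changed at a false discovery rate (FDR) of 0.01 in edgeR's quasi-likelihood test, adjusted over all 12586 genes tested. Of these, 8 were higher at 28 months (27.6% of the members, where 21% of all genes tested were higher) and 5 were lower (17.2%, where 18.7% of all genes were lower). Both shares were thus close to those of the transcriptome. Over the members the log2 fold change had a median of 0.04 and its absolute value one of 0.26, where all genes had 0.01 and 0.29. The changes were spread over all 4 families and went in both directions within each family except Lamp, where 1 of 2 genes changed. Without replicate 2 of the 28-month group 13 members were called, 8 higher and 5 lower, where 18.2% of all genes were higher and 16.4% lower. Under upper-quartile scaling the split of the members was 7 higher and 7 lower, while 17.9% of all genes were higher and 21.9% lower.

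**Figure D1:**
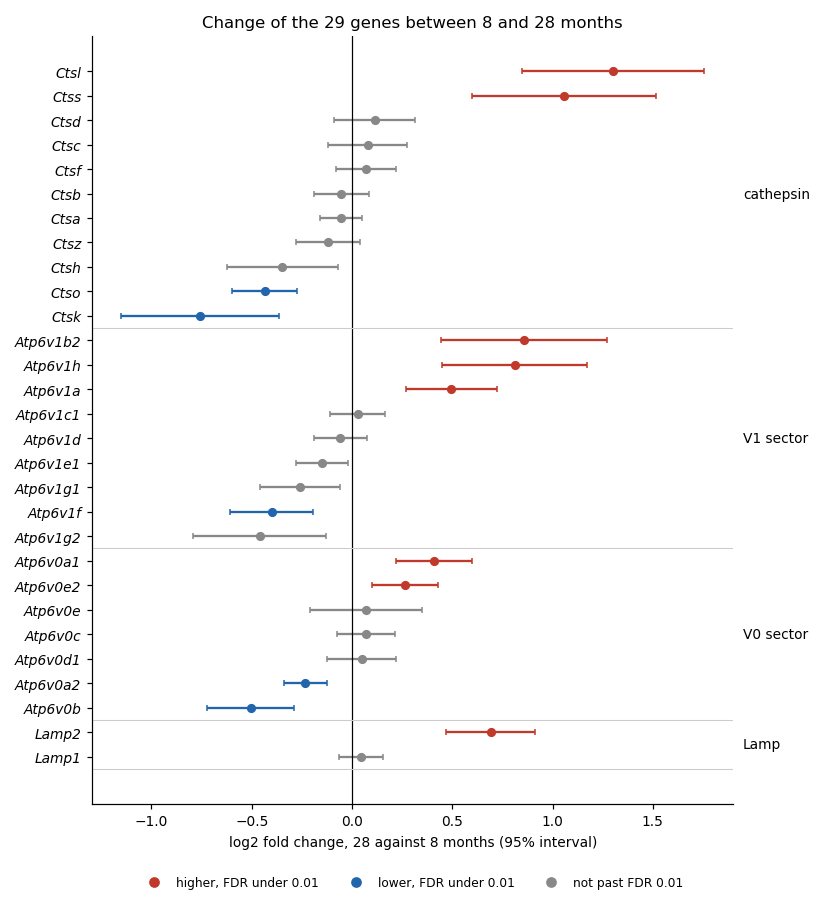
Log2 fold changes (x axis) of the 29 genes between 28 months (n = 9) and 8 months (n = 8) from edgeR, with 95% intervals, ordered by family on the y axis. Red genes were higher and blue genes lower at FDR under 0.01, and grey genes did not pass. Ctsl has the largest rise (1.30) and Ctsk the largest fall (-0.76).

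Cathepsin transcripts were dominated by Ctsd, the main aspartic protease of the lysosome, which made up 58.7% of the summed cathepsin TPM at 8 months. Next came Ctsb, a cysteine protease with endo- and exopeptidase activity, and Ctsl, a cysteine endopeptidase whose transcript is known to rise in wasting muscle. The sum of the 11 cathepsins ranged from 1134 to 1209 TPM at 8 months (median 1186) and from 1025 to 2997 TPM at 28 months (median 1427). The highest sum was that of replicate 2 of 28 months. It had 1526 TPM of Ctsd and 960.6 TPM of Ctsl, where the next mice had 905.3 and 482. The share of Ctsl in that sum was 10.9% at 8 months, 13.5% at 24 months, 15.4% at 26 months and 20.5% at 28 months, while that of Ctsd was 53.1% at 28 months.

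Ctsl (Ensembl gene ENSMUSG00000021477, chr13:64359337-64370890 on the minus strand of GRCm38) lay between 118 and 138 TPM at 8 months, with a median of 131. The range was 120 to 153 TPM at 18 months (median 133), 115 to 153 at 22 months (median 137) and 128 to 196 at 24 months (median 146). At 26 months Ctsl ran from 135 to 372 TPM (median 168), and at 28 months from 120 to 961 TPM (median 302). Thus 8 of the 9 oldest mice were above every 8-month mouse and 1 lay within the young range. Ctsl averaged 129 ± 7.71 TPM at 8 months (SD, n = 8) and 345 ± 262 TPM at 28 months (SD, n = 9), and edgeR gave a log2 fold change of 1.30 ± 0.23 (SE), a 2.47-fold rise (adjusted p = 9.21e-06). Without replicate 2 of the 28-month group its log2 fold change was 0.999 (adjusted p = 5.08e-05). The spread widened with the level: the coefficient of variation of Ctsl was 5.97% at 8 months, 38.3% at 26 months and 75.9% at 28 months, or 49.5% at 28 months without replicate 2.

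Ctss, an elastin-degrading cysteine protease known from macrophages and other antigen-presenting cells, was far less abundant than Ctsl at 8 months, with 8.34 to 17.7 TPM (median 13.3). At 28 months it ran from 18.0 to 65.1 TPM (median 25.7), and all 9 oldest mice were above all 8 youngest. The log2 fold change was 1.06 ± 0.23 (adjusted p = 0.000172), or 0.88 without replicate 2 (adjusted p = 0.00105). Its median was 17.1 TPM at 18 months, 19.4 at 22 months and 19.1 at 24 months, and none of those comparisons with 8 months passed the test (lowest adjusted p = 0.122, at 24 months).

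A pair of cysteine cathepsins were lower in the oldest mice. Ctsk, a collagenase best known from osteoclasts, lay between 7.51 and 13.4 TPM at 8 months (median 9.56) and between 2.49 and 10.3 TPM at 28 months (median 5.40), so that the groups overlapped while 6 of 9 old mice were below all young ones. It fell by 0.76 on the log2 scale (SE 0.20, adjusted p = 0.00119). Ctso, a widely expressed cysteine protease, fell by 0.43 (SE 0.08, adjusted p = 2.43e-05), from 6.61 to 9.57 TPM at 8 months (median 7.55) to 4.99 to 7.85 TPM at 28 months (median 5.98). For Ctso 8 of 9 old mice were below all young mice.

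Ctsd and Ctsb, the most abundant cathepsins at 8 months, did not pass the test. Ctsd lay between 647 and 727 TPM at 8 months (median 696) and between 557 and 1526 TPM at 28 months (median 757), with a log2 fold change of 0.11 ± 0.10 (adjusted p = 0.358). None of the 9 oldest mice was inside the 8-month range: 5 were above it and 4 below it. The coefficient of variation of Ctsd was 3.50% at 8 months and 36.4% at 28 months. Without replicate 2 the latter was 16.2%, and the log2 fold change was -0.015 (adjusted p = 0.896). Ctsb lay between 119 and 151 TPM at 8 months (median 133) and between 118 and 200 TPM at 28 months (median 138), largely within the young range, with a log2 fold change of -0.05 ± 0.07 (adjusted p = 0.524). Without replicate 2 the log2 fold change of Ctsb was -0.10 (adjusted p = 0.192). The other 5 cathepsins that did not pass were Ctsa, a carboxypeptidase that also protects lysosomal glycosidases, the dipeptidyl peptidase Ctsc, Ctsf, the aminopeptidase Ctsh and the carboxypeptidase Ctsz. Their log2 fold changes ran from -0.35 for Ctsh (adjusted p = 0.0299) to 0.08 for Ctsc (adjusted p = 0.517).

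**Figure D2:**
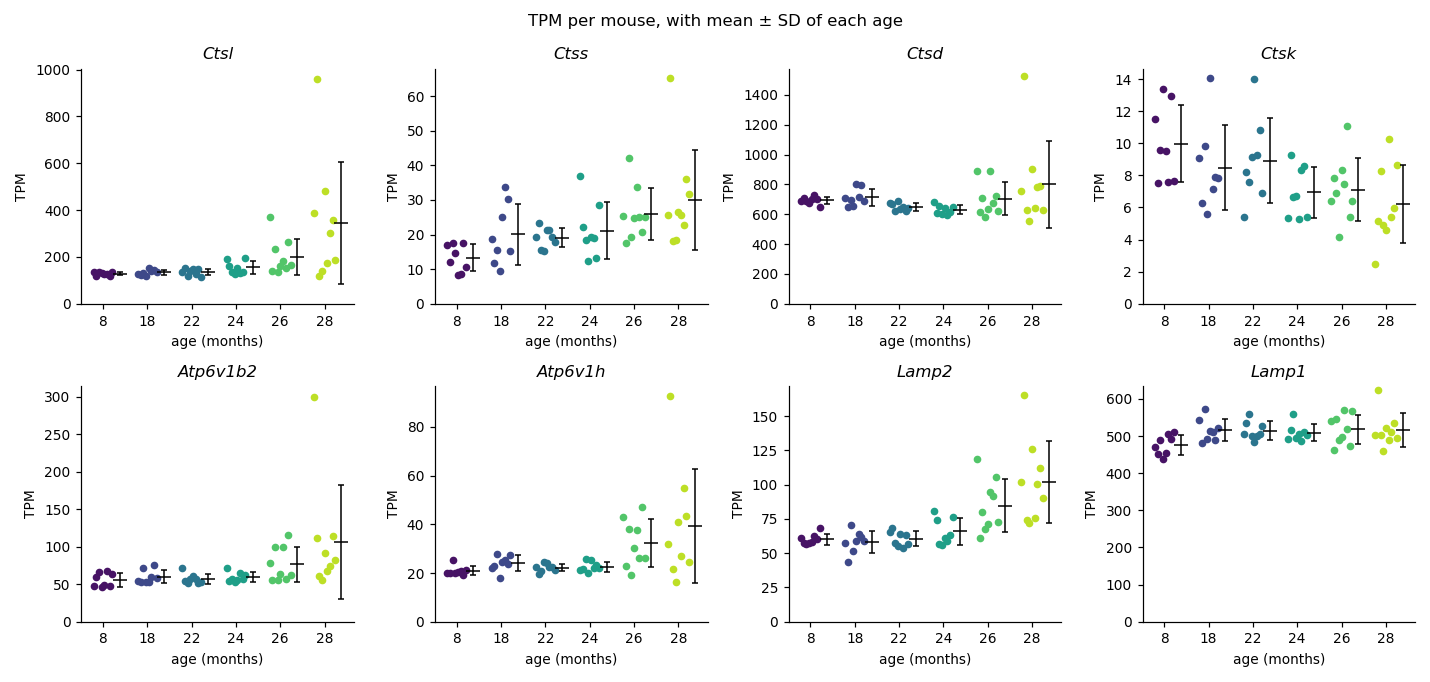
TPM (y axis, from 0) of 8 of the genes in each mouse by age in months (x axis), where points are mice and bars beside them give the mean ± SD (n = 8, or 9 at 26 and 28 months). Ctsl, Atp6v1b2, Atp6v1h and Lamp2 spread upward at 26 and 28 months, and the highest point at 28 months is replicate 2 for Ctsl, Ctss, Ctsd, Atp6v1h, Lamp2 and Lamp1 and replicate 1 for Atp6v1b2.

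In the V1 sector, 3 of 9 subunits were higher and 1 lower at 28 months. The 3 that rose were Atp6v1a and Atp6v1b2, which encode the A and B subunits of the ATP-hydrolysing hexamer, and Atp6v1h, which encodes the regulatory H subunit. Atp6v1b2 lay between 46.7 and 67.2 TPM at 8 months (median 54.0) and between 55.1 and 300.2 TPM at 28 months (median 82.7). Here 7 of 9 old mice were above all young mice, and the highest by far was replicate 1, at 300.2 TPM, where the next mouse had 114.8. The log2 fold change of Atp6v1b2 was 0.86 ± 0.21 (adjusted p = 0.000572). It was 0.45 without that mouse (adjusted p = 0.00671).

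Atp6v1h (chr1:5070018-5162529, plus strand) lay between 19.4 and 25.4 TPM at 8 months (median 20.4), from 19 to 47.3 at 26 months (median 30.3) and between 16.2 and 92.7 at 28 months (median 31.8). Of the oldest mice 6 were above and 1 was below all young mice, so that the old group extended past the young one on both sides. Its log2 fold change was 0.81 ± 0.18 (adjusted p = 0.000224), or 0.60 without replicate 2 (adjusted p = 0.00163). Atp6v1a was more even among the old mice, with 11.3 to 18.4 TPM at 8 months (median 15.9) and 16.1 to 27.0 TPM at 28 months (median 23.4). For this catalytic subunit 8 of 9 old mice were above all young mice and the log2 fold change was 0.50 ± 0.11 (adjusted p = 0.000315).

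Atp6v1f, which encodes the small F subunit of the rotor shaft, went the other way. It lay between 112 and 160.0 TPM at 8 months (median 146) and between 95.2 and 125 TPM at 28 months (median 111), and 6 of 9 old mice were below all young mice. It fell by 0.40 on the log2 scale (SE 0.10, adjusted p = 0.0012). The most abundant V1 transcripts were those of Atp6v1g1 and Atp6v1e1, which encode parts of the stalks that hold the hexamer in place. Atp6v1g1 ran from 194 to 287 TPM at 8 months (median 259) and from 204 to 234 TPM at 28 months (median 223), with every old mouse inside the young range and a log2 fold change of -0.26 ± 0.10 (adjusted p = 0.0248). Atp6v1e1 ran from 148 to 170 TPM at 8 months (median 158) and from 141 to 168 TPM at 28 months (median 156), with a log2 fold change of -0.15 ± 0.06 (adjusted p = 0.0496). The remaining members Atp6v1c1, Atp6v1d and Atp6v1g2 had log2 fold changes of 0.03, -0.06 and -0.46 and did not pass (adjusted p = 0.744, 0.467 and 0.0165). Atp6v1g2, an isoform known from brain, was the least abundant of the 29 genes, with a median of 2.62 TPM at 8 months.

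In the V0 sector, 2 of 7 subunits were higher and 2 lower. The large a subunit, which carries the proton path and decides where the pump is placed, is encoded by alternative genes, and the a1 and a2 genes moved in opposite directions. Atp6v0a1 lay between 31.9 and 65.1 TPM at 8 months (median 55.3) and between 55.2 and 88.9 TPM at 28 months (median 73.8), with 7 of 9 old mice above all young mice. It rose by a log2 fold change of 0.41 ± 0.09 (adjusted p = 0.000373). Atp6v0a2 lay between 23.6 and 37.2 TPM at 8 months (median 32.5) and between 26.4 and 32.2 TPM at 28 months (median 27.9), so all old mice were inside the young range. From the counts it fell by 0.23 on the log2 scale (SE 0.05, adjusted p = 0.000331), whereas limma on log2(TPM + 1) gave -0.11 (adjusted p = 0.234), so that this call held on counts and not on TPM.

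Atp6v0b, which encodes a proteolipid of the rotor ring, lay between 128 and 188 TPM at 8 months (median 172) and between 105 and 139 TPM at 28 months (median 125). The groups overlapped, and 6 of 9 old mice were below all young mice. It fell by 0.51 on the log2 scale (SE 0.11, adjusted p = 0.000148). Atp6v0c, the other proteolipid gene of the ring and the most abundant V0 transcript, lay between 181 and 223 TPM at 8 months (median 193) and between 188 and 289 TPM at 28 months (median 212), with a log2 fold change of 0.07 ± 0.07 (adjusted p = 0.434). Atp6v0e2, which encodes a small membrane subunit, rose by 0.26 ± 0.08 (adjusted p = 0.00572) from 47.9 to 58.0 TPM at 8 months (median 51.8) to 56.6 to 80.3 TPM at 28 months (median 64.5). This was the smallest of the called rises, and it did not pass under upper-quartile scaling (adjusted p = 0.0245). Atp6v0d1 and Atp6v0e had log2 fold changes of 0.05 and 0.07 (adjusted p = 0.653 and 0.687). Without replicate 2 of 28 months Atp6v0e was at -0.003 (adjusted p = 0.990).

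**Figure D3:**
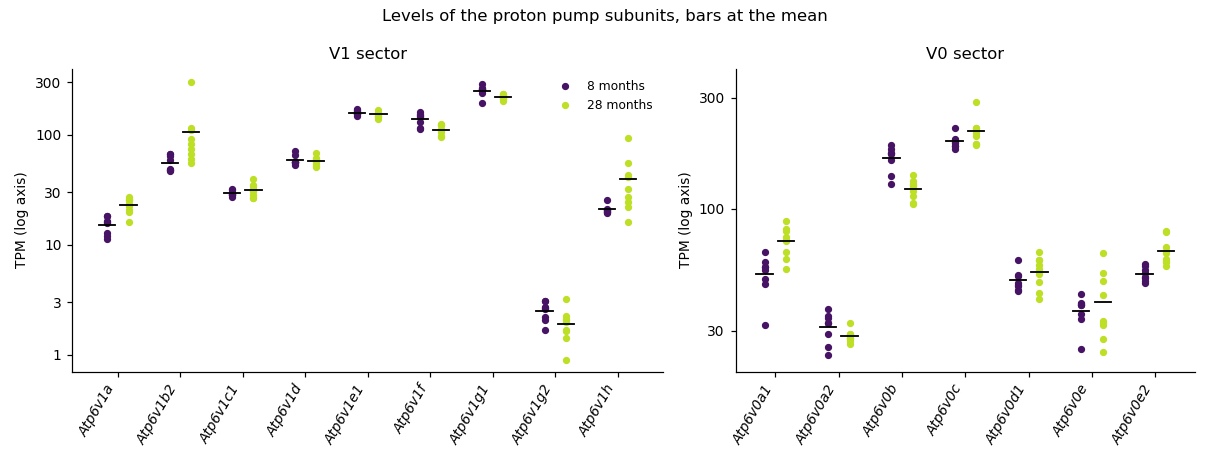
TPM on a log axis (y) of the 9 V1 and 7 V0 subunit genes (x) in each mouse at 8 months (dark, n = 8) and 28 months (light, n = 9), with bars at the mean. Subunits of 1 pump differ widely in transcript level at both ages, and Atp6v1b2, Atp6v1h and Atp6v0a1 shift upward where Atp6v1f and Atp6v0b shift downward.

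Summed levels were also read for each sector. The 9 V1 genes ranged from 639 to 803 TPM at 8 months (median 738) and from 651 to 888 TPM at 28 months (median 751). The 7 V0 genes ranged from 543 to 624 TPM at 8 months (median 589) and from 529 to 709 TPM at 28 months (median 604). The groups overlapped for both sums.

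Of the membrane proteins, Lamp2 rose and Lamp1 did not pass the test. Lamp2 (chrX:38401357-38456454, minus strand), needed for the fusion of autophagosomes with lysosomes and for chaperone-mediated autophagy, lay between 56.8 and 68.5 TPM at 8 months (median 59.1). Its median was 58.8 TPM at 18 months, 60.5 at 22 months, 62.3 at 24 months, 80.1 at 26 months and 100.3 at 28 months, where it ranged from 72.0 to 165. All 9 oldest mice were above all 8 youngest. The log2 fold change was 0.69 ± 0.11 (adjusted p = 2.72e-06), the lowest adjusted p among the members, and 0.61 without replicate 2 (adjusted p = 1.24e-05). Lamp1, far more abundant, lay between 439 and 510.0 TPM at 8 months (median 481) and between 461 and 624 TPM at 28 months (median 504), with a log2 fold change of 0.04 ± 0.05 (adjusted p = 0.502). The interval of that fold change was 0.957 to 1.11.

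The spread among mice was also compared between ages. The coefficient of variation was larger at 28 than at 8 months for 20 of the 29 genes, where 63.3% of all tested genes had a larger one. When replicate 2 was left out this was so for 16 of the 29 and for 50.5% of all tested genes. Its median over the members was 10.5% at 8 months, 13.4% at 18 months, 9.29% at 22 months and 10.7% at 24 months. At 26 months the median was 12.9%, and at 28 months 15.3% (13.2% without replicate 2). The coefficient exceeded 25% for 1 member at 8 months and for 10 at 28 months (7 without replicate 2). The shares of all genes over 25% were not worked out. At 28 months the same mice were high in several members. The 5 highest mice in Ctsl (replicates 1, 2, 5, 7 and 8) were also the 5 highest in Ctsd, Lamp2, Atp6v0c, Atp6v0d1, Atp6v1a and Atp6v1h, which is 6 of the 28 other members. Of all other tested genes 1274, or 10.1%, had the same 5 mice on top. At 26 months none of the other members had the same 5 highest mice as Ctsl, against 3.94% of all other genes.

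The timing of the changes was followed with the other ages, which are compared with the same 8-month mice and so share their controls. At 26 months 6 members had changed: Ctss, Atp6v1h, Lamp2, Atp6v0a1 and Atp6v1a were higher (background 9.84% of all genes) and Ctso was lower (background 8.55%). Upper-quartile scaling gave 4 higher and 2 lower (background 8.63% and 9.69%). The log2 fold changes at 26 months were 0.93 ± 0.23 for Ctss, 0.61 ± 0.18 for Atp6v1h, 0.49 ± 0.11 for Lamp2, 0.40 ± 0.09 for Atp6v0a1, 0.38 ± 0.11 for Atp6v1a and -0.36 ± 0.08 for Ctso. Ctsl had a log2 fold change of 0.62 ± 0.22 at that age and did not pass (adjusted p = 0.0265).

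Earlier ages gave no member past the threshold. At 24 months edgeR called 0 of 29 members (background 0.318% higher and 0.294% lower), with 6 at an unadjusted p under 0.05. At 22 months it called 0 (background 0.0397% higher and 0% lower), with 1 such member, and at 18 months it called 0 (background 0.0397% higher and 0.0318% lower), with 3 such members. DESeq2 and limma on log2(TPM + 1) also called 0 members at each of these ages.

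Neighbouring ages were compared as well. Between 24 and 26 months 0 members were called, with a background of 0% of all genes in either direction, and 5 had an unadjusted p under 0.05, of which Lamp2 had the lowest (log2 fold change 0.37 ± 0.11, adjusted p = 0.0848). Between 26 and 28 months 0 members were called, again with 0% of all genes in either direction, and 4 had an unadjusted p under 0.05, of which Ctsl had the lowest (log2 fold change 0.68 ± 0.21, adjusted p = 0.255, or 0.38 and 0.651 without replicate 2 of 28 months). DESeq2 and limma called 0 members in both steps. The rise between 8 and 28 months was thus not assigned by these tests to a single step.

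The comparison of 28 with 22 months keeps the diet schedule constant, though not the time on the diet, and leaves out the 8-month mice. It shares the 28-month mice with the comparison of 28 with 8 months. The comparison with 22 months called 7 members. Higher at 28 months were Ctsl, Atp6v1b2, Atp6v1h and Lamp2 (background 16.2%), with log2 fold changes of 1.27 ± 0.23, 0.86 ± 0.21, 0.74 ± 0.18 and 0.71 ± 0.11. Lower were Ctso, Atp6v0b and Atp6v0a2 (background 11.5%), with log2 fold changes of -0.34 ± 0.08, -0.36 ± 0.11 and -0.25 ± 0.05. Without replicate 2 of the 28-month group Atp6v0b was at -0.35 and no longer passed (adjusted p = 0.0127). In that fit 11.7% of all genes were higher and 8.48% lower. Upper-quartile scaling called 4 higher and 4 lower members, where 11.9% of all genes were higher and 15.5% lower. Ctss, called against 8 months, had a log2 fold change of 0.58 ± 0.22 here (adjusted p = 0.0335).

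**Figure D4:**
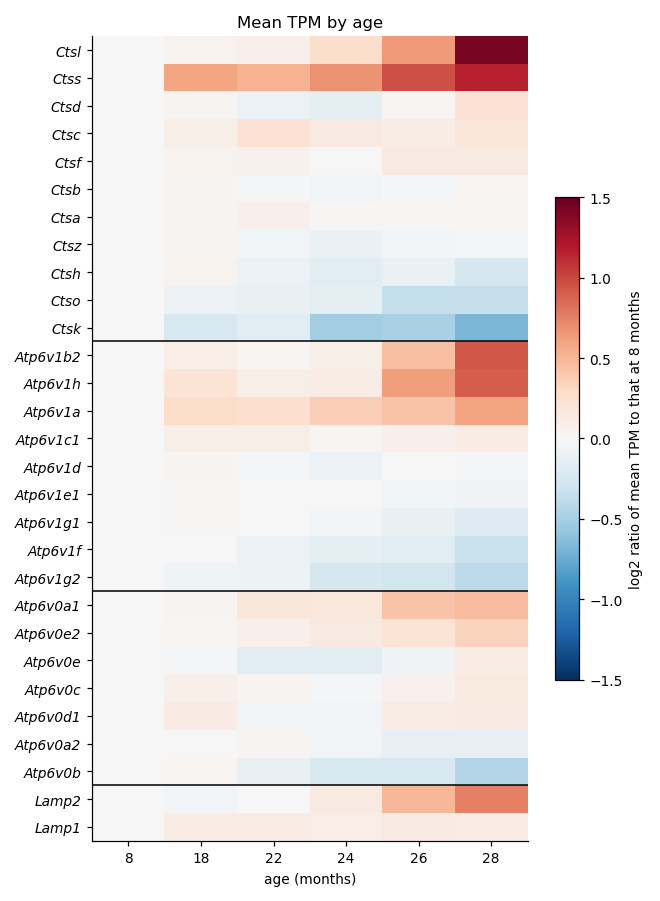
Mean TPM of each of the 29 genes (rows, by family) at each age in months (columns), as the log2 ratio to the mean at 8 months. Ctss is above its 8-month mean from 18 months on. Ctss, Ctsl, Atp6v1b2, Atp6v1h and Lamp2 are each darkest at 28 months. Ctsk, Ctso, Atp6v1f and Atp6v0b are below their 8-month means at 28 months.

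The other genes that build the pump were read from a list of 12 subunits and assembly factors outside the symbol rule, of which 11 were tested. Between 8 and 28 months 2 were higher (18.2%, against 21% of all genes) and 0 lower at FDR 0.01. Dmxl2, a component of the complex that puts V1 onto V0, averaged 2.18 ± 0.81 TPM at 8 months (SD, n = 8) and 4.10 ± 1.46 TPM at 28 months (SD, n = 9), with a log2 fold change of 0.76 ± 0.15 (adjusted p = 8.38e-05). Atp6ap2, an accessory membrane protein also known as the prorenin receptor, rose by 0.48 ± 0.11 (adjusted p = 0.000393). Its partner Atp6ap1, the most abundant gene of the list, had a log2 fold change of -0.12 ± 0.05 (adjusted p = 0.0357). The others ran from -0.13 for Ccdc115 to 0.25 for Dmxl1, with Rnasek, Tmem199, Rogdi, Tcirg1, Wdr7 and the assembly chaperone Vma21 between them.

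Transcription factors of the TFEB family bind lysosomal gene promoters, and 3 of their 4 genes could be tested. Mitf was higher at 28 months (log2 fold change 0.40 ± 0.10, adjusted p = 0.00103, or 0.26 and 0.00612 without replicate 2 of 28 months), with 9.74 ± 1.65 TPM at 8 months and 13.98 ± 5.33 TPM at 28 months (SD, n = 8 and 9). Tfeb itself, the most abundant of them at 66.5 ± 6.92 and 76.5 ± 9.40 TPM, had a log2 fold change of 0.12 ± 0.09 (adjusted p = 0.281), and Tfe3 had one of 0.10 ± 0.08 (adjusted p = 0.294). Transcript levels do not measure the nuclear location of these factors, by which TFEB is known to be regulated.

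TFEB and its relatives are known to recognise the E-box CACGTG, most often within the longer motif TCACGTGA, so both were searched in the RefSeq promoter entries of the members (250 bases before to 50 after the RefSeq transcript start, GRCm38.p6). Both motifs read the same on the 2 strands, and each match of the longer one contains the shorter. Of the 29 members 22 had a promoter entry, and 9 of those 22 genes held CACGTG in at least 1 promoter. Per promoter this was 34.6% of 26 member promoters and 7.15% of all 32851 promoters, and for TCACGTGA it was 19.2% and 0.974%. CACGTG stood in 3 of the 10 called genes with a promoter entry, namely Ctsl, Atp6v1a and Atp6v0b, of which the last was lower with age, and in 6 of the 12 that were not called. However, 9 of the 26 entries lay wholly inside the gene as annotated by GENCODE, downstream of its outermost start. Without them 5 of 17 member entries held CACGTG (29.4%, against 8.05% of all such entries), and of the called genes only Atp6v0b. The entries of these 3 genes and of Lamp1, which had the most matches, are printed 5′ to 3′ on the strand of the gene with the matches in capitals.
Ctsl RefSeq entry, inside the gene, chr13:64370471-64370770, minus strand: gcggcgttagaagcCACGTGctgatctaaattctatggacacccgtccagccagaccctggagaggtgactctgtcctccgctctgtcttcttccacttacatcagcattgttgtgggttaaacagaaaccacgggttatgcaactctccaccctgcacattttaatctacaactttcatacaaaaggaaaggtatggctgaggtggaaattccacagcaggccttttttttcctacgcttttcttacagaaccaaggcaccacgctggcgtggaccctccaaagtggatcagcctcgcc
Atp6v1a RefSeq entry, inside the gene, chr16:44139210-44139509, minus strand: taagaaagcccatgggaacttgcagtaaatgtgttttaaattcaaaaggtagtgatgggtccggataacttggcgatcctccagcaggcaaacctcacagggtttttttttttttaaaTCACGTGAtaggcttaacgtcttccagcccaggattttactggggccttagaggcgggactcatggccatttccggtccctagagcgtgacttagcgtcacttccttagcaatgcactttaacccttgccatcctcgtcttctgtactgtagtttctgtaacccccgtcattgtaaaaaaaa
Atp6v0b RefSeq entry, chr4:117887280-117887579, minus strand: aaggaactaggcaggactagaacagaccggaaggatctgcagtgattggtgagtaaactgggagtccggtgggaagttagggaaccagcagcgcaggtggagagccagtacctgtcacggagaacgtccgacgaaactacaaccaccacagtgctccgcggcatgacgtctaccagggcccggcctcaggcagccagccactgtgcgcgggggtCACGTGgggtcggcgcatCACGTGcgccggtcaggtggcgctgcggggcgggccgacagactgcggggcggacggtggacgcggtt
Lamp1 RefSeq entry, chr8:13158911-13159210, plus strand: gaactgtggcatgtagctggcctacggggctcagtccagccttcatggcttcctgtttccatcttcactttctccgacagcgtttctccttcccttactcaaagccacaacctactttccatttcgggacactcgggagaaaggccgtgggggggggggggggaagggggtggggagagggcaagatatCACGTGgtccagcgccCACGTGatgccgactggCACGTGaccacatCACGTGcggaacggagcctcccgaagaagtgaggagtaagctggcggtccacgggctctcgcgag

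In Ctsl the match began 236 bases before the RefSeq start, which itself lies 370 bases inside the annotated gene, so that the match is downstream of the outermost start. In Atp6v1a, whose RefSeq start lies 446 bases inside the gene, the capitals mark TCACGTGA, and in Atp6v0b the matches began 36 and 18 bases before the start. Lamp1 held 4 copies in the last 61 bases before its start and did not pass the test with age. A match is a run of letters and not a measured binding site, and no binding was measured here.

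Other lysosomal genes were read from 4 further lists. Of 38 tested hydrolases and activators, 3 were higher (7.89%, against 21% of all genes) and 5 lower (13.2%, against 18.7%) at 28 than at 8 months, both below the shares of all genes. Gaa, the acid glucosidase that degrades lysosomal glycogen, rose by 0.42 ± 0.10 (adjusted p = 0.000327), from 192 to 279 TPM at 8 months (median 246) to 252 to 603 TPM at 28 months (median 333). The lower ones included Aga, which cleaves the asparagine link of glycoproteins (log2 fold change -0.51 ± 0.09, adjusted p = 1.31e-05), the sulfatases Arsb and Sgsh (-0.50 and -0.49), and the acid sphingomyelinase Smpd1 (-0.46). The median over the list was -0.13, and that of all genes was 0.01.

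Membrane proteins and transporters of the lysosome, 31 genes, held 8 higher (25.8%) and 7 lower ones (22.6%), near the shares of all genes. Without replicate 2 there were 6 higher and 7 lower. Npc1, which exports cholesterol, lay between 28.0 and 62.8 TPM at 8 months (median 37.9) and between 27.6 and 227 TPM at 28 months (median 92.7), with a log2 fold change of 1.12 ± 0.24 (adjusted p = 0.000134), or 0.90 without replicate 2 (adjusted p = 0.000924). Sidt2, a lysosomal membrane protein linked to nucleic acid uptake, rose by 1.04 ± 0.19 (adjusted p = 1.5e-05). Slc11a1, a metal transporter of phagocytes, rose by 0.75 ± 0.21 (adjusted p = 0.00252), and Laptm5, a membrane protein of leukocytes, by 0.69 ± 0.20 (adjusted p = 0.00343). Neither passed without replicate 2, where they were at 0.43 and 0.48 (adjusted p = 0.0331 and 0.0268). Tmem192, a widely used marker of the lysosomal membrane, fell by 0.62 (SE 0.10, adjusted p = 4.65e-06). Among the Ragulator subunits, which anchor mTORC1 signalling on lysosomes, 3 of 5 were lower: Lamtor1, Lamtor2 and Lamtor4, with log2 fold changes of -0.53, -0.52 and -0.54. Lamtor3 and Lamtor5 were at -0.05 and -0.20 and did not pass (adjusted p = 0.670 and 0.0399). These 5 genes were picked from the list after their values were seen, and 18.7% of all genes were lower. The median over the 31 genes was 0.11.

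Sorting genes, which deliver enzymes and membrane proteins to lysosomes, gave 7 higher (43.8%, against 21% of all genes) and 0 lower (against 18.7%) of 16, with a median log2 fold change of 0.28, and the same counts without replicate 2. This comparison with all genes was not tested. The largest rises were those of Ap3b1 and Ap3d1, subunits of the AP-3 adaptor (0.74 ± 0.10 and 0.47 ± 0.10, adjusted p = 3.8e-07 and 0.000169), of the receptor Sort1 (0.40 ± 0.13, adjusted p = 0.00664) and of the AP-1 subunit Ap1g1 (0.40 ± 0.11, adjusted p = 0.00198). Of 4 tested protease inhibitors (the cystatins Cst3 and Cst6, the stefin Cstb and the serpin Serpinb6a), 0 were higher and 1 was lower: Cst3, the secreted cystatin C, fell by 0.37 (SE 0.10, adjusted p = 0.00141), from 719 ± 99.4 TPM to 591 ± 50.2 TPM (SD, n = 8 and 9).

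Whole muscle holds several cell types, and in such RNA fewer cells of a type and less RNA per cell cannot be told apart. Markers of other cells were therefore read beside the members. Of 12 macrophage markers, 8 were higher (66.7%, against 21% of all genes) and 0 lower (against 18.7%) at 28 than at 8 months. The median log2 fold change over the list was 0.65. Without replicate 2 the median was 0.54 and 3 passed (Mrc1, Cd163 and C1qc), where 18.2% of all genes were higher. The 5 that then missed the threshold had log2 fold changes of 0.45 for Csf1r, 0.52 for C1qb, 0.55 for Lyz2, 0.73 for Cd14 and 0.63 for Itgam, which had been 0.57, 0.60, 0.70, 0.998 and 1.26. Their summed level ranged from 195 to 335 TPM at 8 months (median 254) and from 306 to 842 TPM at 28 months (median 428, and highest 476 without replicate 2), with medians of 283, 337, 330.4 and 415 TPM at 18, 22, 24 and 26 months. Lyz2 was the most abundant of them, and none was listed at 0 in 40 or more mice. The defining marker Adgre1 had a log2 fold change of 0.15 ± 0.21 (adjusted p = 0.567) and Cd163, a scavenger receptor of resident macrophages, one of 1.29 ± 0.22 (adjusted p = 9.75e-06). The 8 called markers were higher at 28 months, as were the 8 members called higher, while 5 members were called lower. Those 8 members were Ctss, Ctsl, Lamp2, Atp6v1a, Atp6v1b2, Atp6v1h, Atp6v0a1 and Atp6v0e2. Laptm5 and Slc11a1 were also higher, but did not pass without replicate 2. Against 22 months, where Ctsl, Atp6v1b2, Atp6v1h and Lamp2 were called higher, 1 of the 12 markers was higher (Cd163). There 16.2% of all genes were higher. Among the 9 oldest mice replicate 2 had the highest macrophage sum and the highest Ctsl (842 and 961 TPM), and replicates 3 and 4 the lowest of both (308 and 306 TPM, with Ctsl at 120 and 139 TPM). Replicates 6 and 9 had sums of 442 and 476 TPM with Ctsl at 173 and 186 TPM, and the other 4 had sums of 347 to 439 TPM with Ctsl at 302 to 482 TPM. The part of these cells in the members' results was not tested.

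Both tested neutrophil markers, S100a8 and S100a9, were higher at 28 than at 8 months, where 21% of all genes were higher. Their log2 fold changes were 3.35 ± 0.70 and 3.24 ± 0.66 (adjusted p = 0.000121 and 8.29e-05). Without replicate 2 they were 2.35 ± 0.65 and 2.52 ± 0.63 (adjusted p = 0.00261 and 0.00104). The neutrophil sum had a median of 4.26 TPM at 8 months and 24.5 at 28 months, and 3 mice of other ages also stood high: replicates 2 and 3 at 24 months with 289 and 195 TPM and replicate 7 at 26 months with 226 TPM. Their part in the members' values was not tested.

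**Figure D5:**
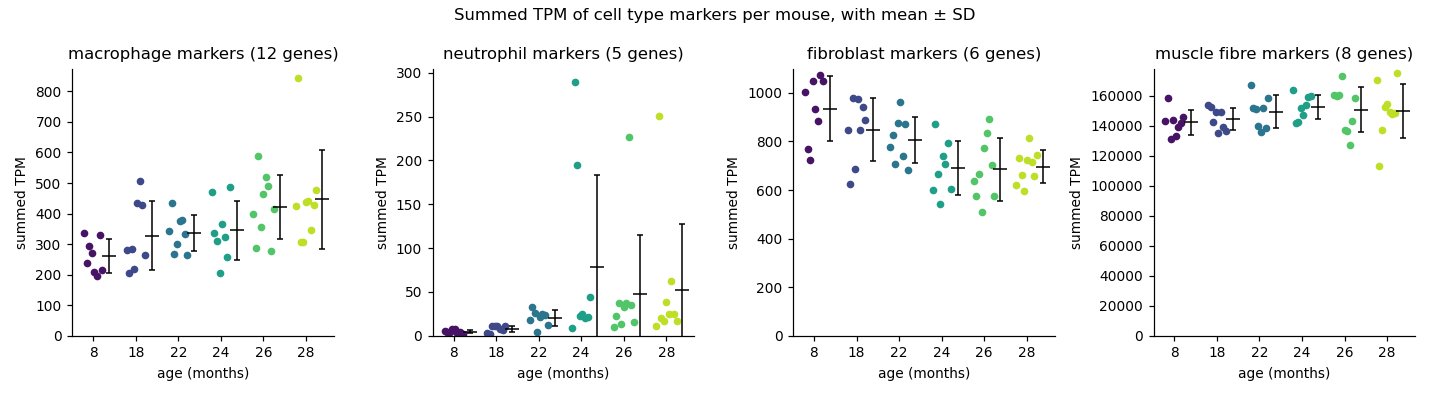
Summed TPM (y axis, from 0) of markers of macrophages, neutrophils, fibroblasts and muscle fibres in each mouse by age in months (x axis), with mean ± SD beside the points and SD bars ending at 0 where they would pass below it. The macrophage sum of replicate 2 at 28 months is the highest point of its panel (842 TPM), and its muscle fibre sum is the lowest (113232 TPM).

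Markers of connective tissue and fat were read in the same way. Of 6 fibroblast markers 4 were lower (66.7%, against 18.7% of all genes), led by Col3a1 (log2 fold change -2.28 ± 0.30). Pdgfra and Dcn did not pass, at -0.30 and -0.20 (adjusted p = 0.0258 and 0.0466). The sum of the 6 had a median of 967 TPM at 8 months and 717 TPM at 28 months. Of 5 adipocyte markers 4 were lower (80%, against 18.7%), and the sum had medians of 282 and 118 TPM. The single osteoclast marker that could be tested, Acp5, was lower (log2 fold change -0.90 ± 0.27, adjusted p = 0.00449), while 4 of the 5 osteoclast markers averaged under 1 TPM. The called markers of these groups were lower, as were the 5 members called lower, while 8 members were called higher. Those 5 members were Ctsk, Ctso, Atp6v1f, Atp6v0b and Atp6v0a2. Against 22 months, where Ctso, Atp6v0b and Atp6v0a2 were called lower, 3 of 6 fibroblast and 2 of 5 adipocyte markers were lower. There 11.5% of all genes were lower. The part of these cells in the members' results was not tested.

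Other marker lists gave little. Of the endothelial markers 1 of 5 was lower (20%, against 18.7% of all genes). Of the muscle fibre markers 2 of 8 were higher (25%, against 21% of all genes), namely Myh1 and Actn3. Myh1 had a log2 fold change of 0.67 with replicate 2 and 0.64 without it (adjusted p = 0.0150). In edgeR 0 of 5 Schwann cell, 0 of 5 mast cell and 0 of 5 dendritic cell and MHC class II markers passed. Jchain of plasma cells, the only tested B cell marker, was higher (log2 fold change 2.70 ± 0.57, adjusted p = 0.000129). The 6 T cell markers and the 5 markers of NK cells averaged under 1 TPM each and were not tested.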

How the data were processed

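Gastrocnemius RNA of 50 mice was analysed, grouped by the age in the labels. The authors trimmed reads with cutadapt (1.9.1) and assigned them with kallisto (0.43.1), using strand, to protein-coding Ensembl transcripts of GRCm38. A read fitting several transcripts was split evenly, so similar gene copies are less certain. The counts, as deposited, are sums over the transcripts of a gene, and the TPM values, as deposited, were scaled by the authors for transcript length and library size. Gene positions are those of GENCODE vM21 (GRCm38), another release than the authors used.

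Counts were tested in R 4.3.3 with the quasi-likelihood test of edgeR 4.0.16. Genes with 1 CPM or more in 8 or more mice entered 1 model of the 6 ages with TMM scaling, and p-values were adjusted by Benjamini-Hochberg over 12586 genes (FDR 0.01). Errors of log2 fold changes are SE. Alternatives were other scalings, no filter, the 2 ages alone, the replicate number as a block, each mouse left out, DESeq2 1.42.0, and limma 3.58.1 on log2(TPM + 1) and log2(TPM + 0.1). The tests were tried on simulated data. Promoters and figures were made in Python 3.11.15 with matplotlib 3.10.9.

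The members and all lists were chosen with earlier results of these data known. Genes were named by a rule: in each family up to 5 called rises and 3 called falls, the 3 most abundant genes and every Lamp gene, and of each other lysosomal list up to 4 called genes with the largest change, with all pump accessory and TFEB family genes. The other members, Gaa, Tmem192, the Lamtor genes and single cell type markers were named after their values were seen. No 2 libraries of 1 age were alike within sampling noise. Over 184 pairs of mice of 1 age, the squared spread was at least 2.69 times that of counting noise. Libraries of different ages were not compared in this way.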

Additional observations from a re-analysis of the deposited data

Results flagged for a closer look

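Within each age, the highest or lowest mouse of each member was compared with the rest of its group by Dixon's test. It stood apart in 21 of 174 groups (12.1%). Chance gives about 1 in 20 for normal values in independent groups. The members were read in the same mice, so their groups are not independent and that rate is only a rough guide. Of the 21, 10 were replicate 2 of the 28-month group. That mouse was the highest of its age in Ctsl (960.6 TPM, next mouse 482.0), Ctsd (1526, next 905.3), Ctsb (200.3), Ctss (65.08), Ctsz (49.49), Ctsc (43.59), Lamp1 (624.2), Atp6v1h (92.74), Atp6v0c (288.8) and Atp6v0a2 (32.20). At 28 months Atp6v1b2 was high in replicate 1 (300.2 TPM, next mouse 114.8) and Ctso in replicate 8 (7.845 TPM).

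The other groups with a mouse apart were scattered over ages. At 8 months replicate 3 was high in Atp6v0c (223.3 TPM) and Atp6v1h (25.41). At 18 months Atp6v1g1 was high in replicate 2 (338.6) and Ctsa in replicate 7 (108.2). At 22 months Atp6v1b2 was high in replicate 1 (72.24) and Ctso in replicate 2 (8.351). At 24 months Atp6v0d1 was low in replicate 4 (39.19) and Lamp1 high in replicate 3 (559.3), and at 26 months Atp6v1g2 was high in replicate 7 (3.079).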

How the results depend on the processing

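The number of members changed between 28 and 8 months stayed between 10 and 14 under the alternatives run: 10 with only the 2 ages in the fit, 12 with limma on either pseudocount, 13 with median-of-ratios factors, DESeq2 or no filter, 14 with upper-quartile factors, and 12 to 14 with 1 mouse left out. With the 2 ages alone 14.5% of all genes were higher and 12.9% lower. These shares were 22.2% and 14% with limma on log2(TPM + 1), and 21.9% and 13.9% on log2(TPM + 0.1). They were 21.2% and 18.3% with median-of-ratios factors and 22.2% and 19% with DESeq2. Without a filter they were 11.8% and 9.87%, of 22116 genes. No called member reversed. Of named members that did not pass, the log2 fold change of Lamp1 was -0.010 with upper-quartile factors, that of Ctsb 0.016 with limma on either pseudocount, and that of Ctsd -0.015 without replicate 2 of 28 months (-0.015 to 0.17 with 1 mouse left out). Calls were lost for Atp6v0e2 (upper-quartile factors, the 2 ages alone, or without any 1 of 5 mice), for Atp6v1b2 and Ctsk with the 2 ages alone (adjusted p = 0.0200 and 0.0114) and for Atp6v0a2 with limma. Atp6v1g1 passed with upper-quartile factors (log2 fold change -0.31, adjusted p = 0.00911) and without 1 mouse. At 26 against 8 months 4 to 6 members were called, and at 28 against 22 months 5 to 8. For 28 against 22 months limma called 5 higher and 1 lower, and the 2 ages alone 2 higher and 3 lower. Of all genes, limma on log2(TPM + 1) called 13.5% higher and 9.36% lower in that comparison. The 2 ages alone gave 9.07% and 5.9%. The causes were not tested. With the replicate number as a block, 14 members were called at 28 against 8 months (8 higher and 6 lower, 13 shared). In that fit 20.6% of all genes were higher and 18.7% lower. Of 121 same-numbered pairs of mice 52 had a correlation of deviations over 0.1 and the lowest was -0.61. Not every pair passed 0.1, and the mice were treated as unpaired. This does not show that same-numbered mice are unrelated. The median was 0.0624 for same-numbered and -0.00676 for other pairs. The best match, sought among the 8 or 9 mice of another age, bore the same number in 54 of 242 cases. Whether this exceeds chance was not tested. Depth limits the rarest members, of which Atp6v1g2 was at a median of 2.62 TPM at 8 months. Leaving out replicate 2 of 28 months for the other gene and marker lists was chosen after seeing the data. It changed the call of 8 listed genes: Laptm5, Slc11a1, Myh1 and the macrophage markers Csf1r, C1qb, Lyz2, Cd14 and Itgam. Leaving out promoter entries inside genes was likewise chosen after seeing the data.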
